A study of Mus musculus with 4 samples.

Results

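The 10 genes described here encode 5 inhibitors of cyclin-dependent kinases (Cdkn1a, Cdkn1b, Cdkn1c, Cdkn2c and Cdkn2d), the 3 D cyclins (Ccnd1, Ccnd2 and Ccnd3) and the 2 kinases that D cyclins activate (Cdk4 and Cdk6). They were found by symbol among the 32285 genes of the count tables, where each of the 10 symbols stood on 1 row, and all 10 had at least 1 UMI in each of the 4 libraries. RNA and surface antibodies had been read together from single CD45.2+Kit+ mouse bone marrow cells 10 weeks after a transplantation. Kit is a receptor carried by stem and progenitor cells of the blood, and CD45.2 is an allelic form of CD45 by which donor-derived cells are told from those of the host. Each of the groups (control, Mll3SI, Mll4SI and Mll3/4SI) is represented by 1 library, so no difference below has a replicate check. The labels name MLL3 and MLL4, histone methyltransferases encoded by Kmt2c and Kmt2d, but do not spell out SI, and the number of animals behind a library, their age and the host are not given in the sources used here.

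D cyclins bind CDK4 or CDK6, and the active pair phosphorylates the RB protein, which frees E2F factors to switch on genes of DNA replication. The INK4 inhibitors, p18 from Cdkn2c and p19 from Cdkn2d among them, bind CDK4 and CDK6 alone. The CIP/KIP inhibitors p21 (Cdkn1a), p27 (Cdkn1b) and p57 (Cdkn1c) bind cyclin and kinase together, and p57 is known for its part in the quiescence of blood stem cells.

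Transcripts were counted as unique molecular identifiers (UMIs), and a level is the sum of UMIs over the cells of a class per 1000000 UMIs of that class (CPM), with an exact 95% Poisson interval in brackets that covers counting error only. The 4 libraries held 7524 to 11678 barcodes and 140546094 to 177753607 gene UMIs, and 6743 control, 8023 Mll3SI, 10186 Mll4SI and 6755 Mll3/4SI cells were kept, with a median of 12793 to 19172 UMIs. Cells were clustered without the 10 genes, and clusters were named from markers as HSC/MPP-like (stem cells and multipotent progenitors), early granulocyte-like, late granulocyte-like, monocyte-like, erythroid-like, basophil/mast-like, B-lymphoid-like and T/NK-like. Cluster 7, with Bcl2, Cd34 and Calr among its leading genes, and cluster 5, of which 99.0% came from the Mll3/4SI library, stayed unnamed. Late granulocyte-like cells lay in partly separate clusters, mainly clusters 0, 2, 14 and 15 for control and Mll3SI, clusters 4, 6, 10 and 11 for Mll4SI and clusters 8 and 9 for Mll3/4SI. As a check of the labels, Kmt2c stood at 128.8, 110, 146 and 123 CPM and Kmt2d at 41.2, 37.9, 35.1 and 33.1 CPM in control, Mll3SI, Mll4SI and Mll3/4SI, so neither transcript was lost. Xist stood at 1150 CPM in the library labelled Mll4SI and at 1357 CPM in that labelled Mll3/4SI, and at 0.0315 and 0.211 CPM in control and Mll3SI, while Y-linked Eif2s3y was at 63.3 CPM in control, 62.1 CPM in Mll3SI and 0 CPM in the other libraries. For Mll4SI and Mll3/4SI, the label and this difference in sex-linked transcripts cannot be told apart.

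Promoter sequences are shown for Cdkn2c, Cdkn2d, Cdkn1a and Cdk4. In each library these 4 genes were higher, by at least 1.24 on the log2 scale, in late granulocyte-like cells with transcripts of dividing cells than in those without, as given further on. Cdkn1b and Cdk6 were higher in each library too, by 0.20 to 0.71 and 0.15 to 0.83. The interval included 0 for Cdkn1b in Mll3/4SI and for Cdk6 in Mll3SI. Cdkn1c, at 1.13 CPM or less, had 0 CPM in the cells without in control, Mll3SI and Mll3/4SI. Its intervals included 0 in these libraries. The windows of Cdkn1b and Cdk6, with 1 and 0 GC boxes as defined below, are not printed. Nor are those of Ccnd3, which held 2 and 1 GC boxes though Ccnd3 differed in no common direction. How many genes outside the 10 were higher in cells with transcripts of dividing cells was not counted. Each run is the 250 bases before the transcription start in RefSeq's table for build GRCm38.p6, 5′ to 3′ on the gene's strand, with each GGGCGG hexamer (the GC box), on either strand, in capitals.
Cdkn2c, chr4:109666757-109667006, minus strand: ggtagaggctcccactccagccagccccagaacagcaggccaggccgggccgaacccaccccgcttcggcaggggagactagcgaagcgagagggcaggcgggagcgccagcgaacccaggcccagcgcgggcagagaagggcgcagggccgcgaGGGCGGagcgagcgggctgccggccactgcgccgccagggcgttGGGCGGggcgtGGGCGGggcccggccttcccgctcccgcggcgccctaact
Cdkn2d, chr9:21291210-21291459, minus strand: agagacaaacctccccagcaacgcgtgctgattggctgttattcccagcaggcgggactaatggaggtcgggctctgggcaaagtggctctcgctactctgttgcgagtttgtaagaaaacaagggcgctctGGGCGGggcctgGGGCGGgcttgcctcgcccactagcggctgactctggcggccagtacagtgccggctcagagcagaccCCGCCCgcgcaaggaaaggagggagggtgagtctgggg
Cdkn1a, chr17:29093519-29093768, plus strand: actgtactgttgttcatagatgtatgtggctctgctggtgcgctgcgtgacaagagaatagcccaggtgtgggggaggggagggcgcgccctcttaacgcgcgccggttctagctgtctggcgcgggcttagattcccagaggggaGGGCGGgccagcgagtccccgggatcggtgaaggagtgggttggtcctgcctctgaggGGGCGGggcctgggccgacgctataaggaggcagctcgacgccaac
Cdk4, chr10:127063285-127063534, plus strand: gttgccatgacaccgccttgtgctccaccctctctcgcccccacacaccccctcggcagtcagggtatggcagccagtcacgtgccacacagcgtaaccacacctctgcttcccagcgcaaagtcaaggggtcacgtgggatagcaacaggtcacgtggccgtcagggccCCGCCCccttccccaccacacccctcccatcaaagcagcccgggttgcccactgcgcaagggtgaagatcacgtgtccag
The table held 10 windows for 7 of the 10 genes, and Cdkn1c, Ccnd1 and Ccnd2 had no entry. The printed windows held 3 GC boxes for Cdkn2c, 3 for Cdkn2d, 2 for Cdkn1a and 1 for Cdk4. A further window each of Cdkn2c and Cdkn1a held 0 and is not printed. A GC box was in 7 of the 10 windows, against 32.7% of all 32841 windows of the same length. The E2F-type octamer TTTNNCGC, searched on both strands, was in 1 of the 10 windows, that of Cdk6, against 4.28% of all windows, and overlapped no GC box. These are matches of letters and not binding sites.

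Over 7 cell classes, the kinases and Ccnd2 were high in progenitors and lowest in late granulocyte-like cells, and the INK4 inhibitors and Ccnd3 were highest there. Both patterns were found in each of the 4 libraries, as the plot of levels by class shows. Late granulocyte-like cells were also highest of the 7 classes, in each library, for the summed transcripts of 30 genes of S, G2 and M phase. These stood at 6372, 6749, 4821 and 5585 CPM in control, Mll3SI, Mll4SI and Mll3/4SI, so the class was not one without dividing cells. Cdk6 (ENSMUSG00000040274, GRCm38 chromosome 5, 3341485 to 3531008, plus strand) stood at 1122, 1102, 1403 and 1048 CPM in HSC/MPP-like cells of control, Mll3SI, Mll4SI and Mll3/4SI, and at 73.9, 77.9, 82.6 and 86.6 CPM in late granulocyte-like cells. In all 4 libraries the late granulocyte-like level was thus the lowest among the 7 classes compared. Basophil/mast-like cells had 1347, 1478, 1538 and 1398 CPM of Cdk6, above every other class in each library. Cdk4 (ENSMUSG00000006728, chromosome 10, 127063534 to 127067920, plus strand) showed the same drop, from 262, 272, 241 and 240 CPM in HSC/MPP-like cells to 23.4, 30.2, 20.7 and 27.5 CPM in late granulocyte-like cells. Ccnd2 (ENSMUSG00000000184, chromosome 6, 127125162 to 127152193, minus strand), for cyclin D2, went further, from 187, 179, 151 and 197 CPM to 2.14, 2.04, 0.784 and 1.08 CPM.

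**Figure D1:**
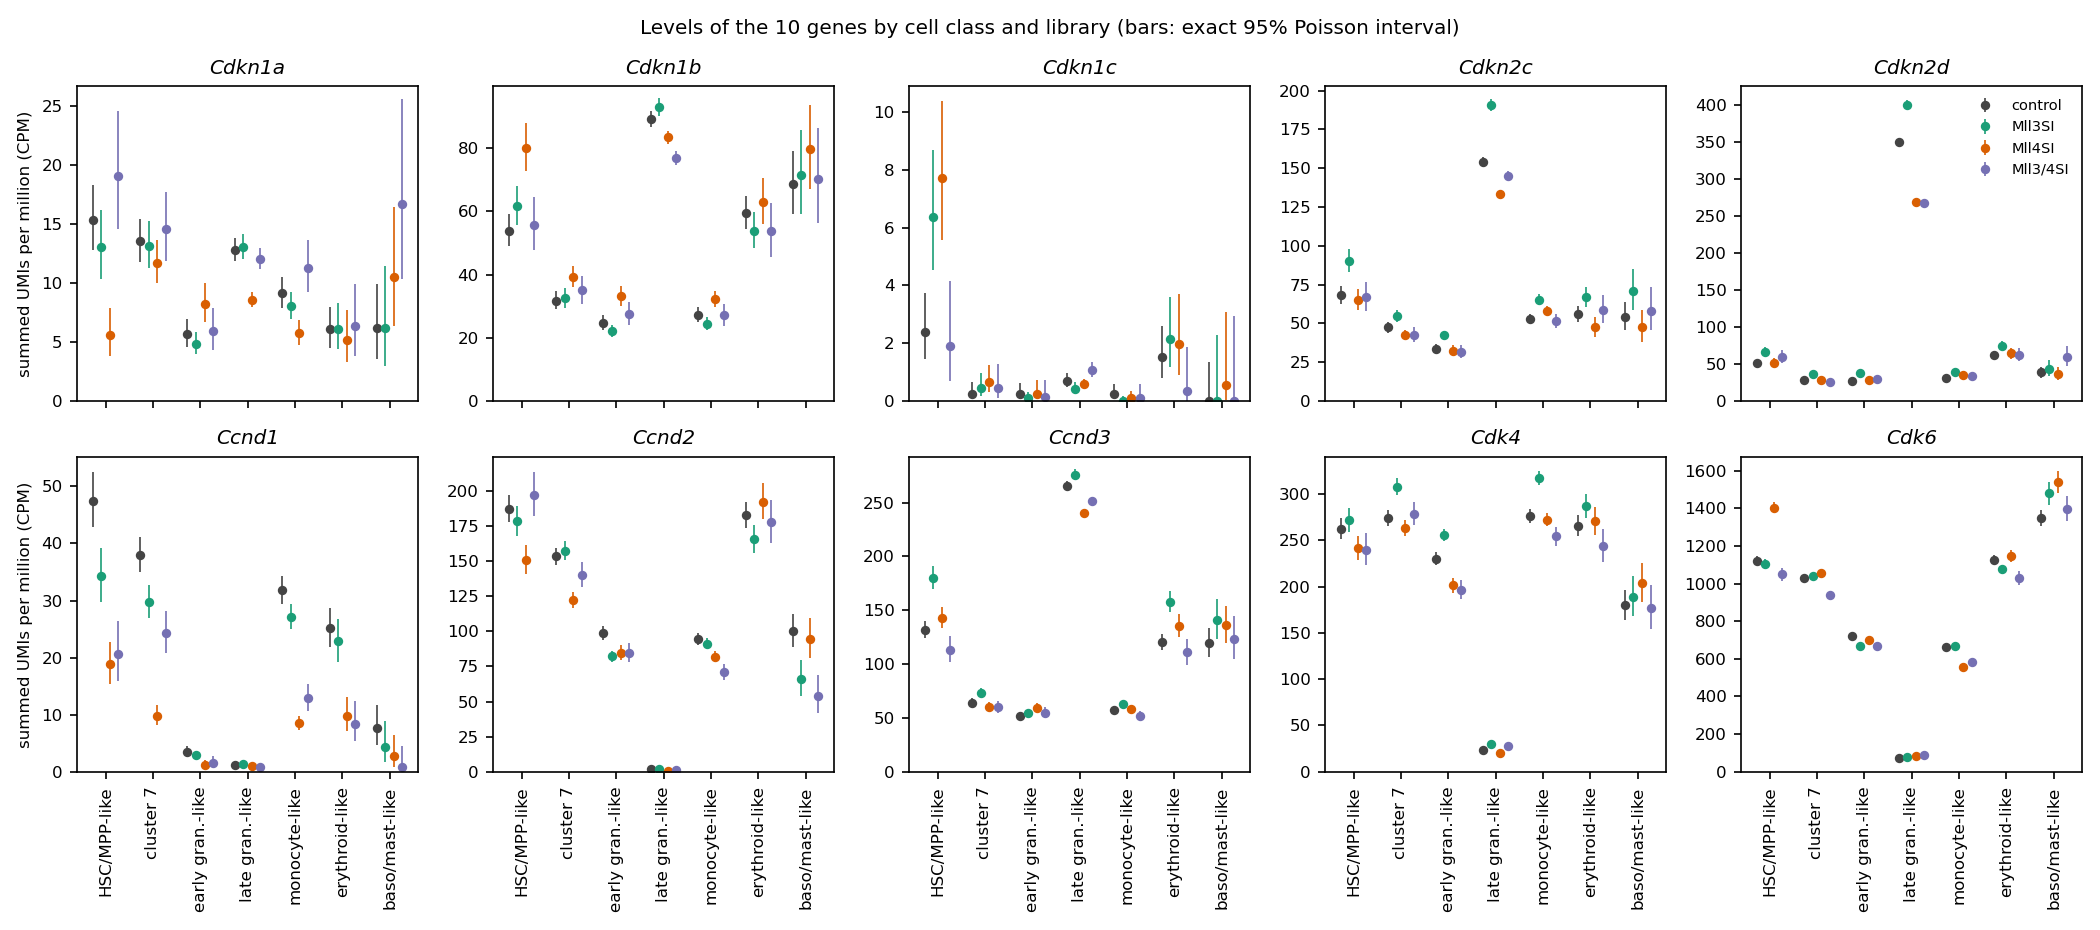
Summed UMIs per 1000000 (CPM) of each of the 10 genes in 7 cell classes, with 1 point per library (colour) and exact 95% Poisson intervals as vertical lines. Cdk4, Cdk6 and Ccnd2 drop in late granulocyte-like cells in all 4 libraries, and Cdkn2c, Cdkn2d and Ccnd3 peak there.

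Cdkn2d and Cdkn2c, the INK4 genes, peaked late. Cdkn2d (ENSMUSG00000096472, chromosome 9, 21288410 to 21291407, minus strand) was at 50.6, 66.5, 51.8 and 59.2 CPM in HSC/MPP-like cells of control, Mll3SI, Mll4SI and Mll3/4SI and at 350.4, 401, 269 and 268 CPM in late granulocyte-like cells. Late granulocyte-like cells thereby held 83.1% to 90.7% of all Cdkn2d UMIs of a library. Cdkn2c (ENSMUSG00000028551, chromosome 4, 109660876 to 109667189, minus strand) went from 68.0, 90.3, 64.9 and 66.9 CPM to 154, 191, 133 and 145 CPM over the same step. Ccnd3 (ENSMUSG00000034165, chromosome 17, 47505051 to 47599691, plus strand), for cyclin D3, was the only D cyclin of the 3 with this order, at 132, 180.0, 143 and 113 CPM in HSC/MPP-like cells and 265, 276, 241 and 251 CPM in late granulocyte-like cells. B-lymphoid-like cells, outside the 7 classes, had more Ccnd3 still, at 382, 484, 511 and 490 CPM. Early granulocyte-like cells, which stand between in the marker programme, had the lowest Ccnd3 level of the 7 classes in control and Mll3SI, at 51.9 and 54.3 CPM. In Mll4SI and Mll3/4SI the lowest was 58.1 and 51.9 CPM in monocyte-like cells, within the counting error of the early granulocyte-like level.

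Over the 36 points of a class in a library with at least 50 cells, Pearson's r of log2(CPM + 1) was 0.94 between Cdkn2c and Cdkn2d, 0.87 between Cdkn2c and Ccnd3 and 0.92 between Ccnd2 and Cdk4. It was -0.77 between Cdkn2d and Cdk6 and -0.75 between Cdkn2d and Cdk4. The points share libraries and classes, and these values only describe them. Among 9827 genes of at least 20 CPM in 1 point, those most like Cdkn2d were Hmgb2 (0.95), Tuba1c (0.94) and Asf1b (0.94), and those most like Cdkn2c were Rdm1 (0.92), Hmgb2 (0.91) and Racgap1 (0.91). For Ccnd3 they were led by Rad21 (0.91) and Ccnb2 (0.90). Cdk4 was most like Gtf3a (0.99), Mrpl23 (0.99) and Paics (0.99), Ccnd2 like Snhg1 (0.98), Pcgf6 (0.98) and Cct3 (0.97), and Cdk6 like Kctd1 (0.97), Uri1 (0.96) and 2210408I21Rik (0.96). Cdkn1b was most like Ccng2 (0.92), Trp53inp1 (0.88) and Stk17b (0.87). The likeness was lower for Ccnd1, led by Kctd14 (0.87), Meaf6 (0.86) and Cd2ap (0.86), for Cdkn1c, led by Gm5111 (0.80), Cyp7b1 (0.79) and Crispld1 (0.78), and for Cdkn1a, led by H2afv (0.80), Oip5 (0.80) and 4930579G24Rik (0.80).

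Ccnd1 differed most from control among the 10 genes, with a lower level in Mll4SI and Mll3/4SI in each of the 4 compared classes in which control reached 10 CPM. Ccnd1 (ENSMUSG00000070348, GRCm38 chromosome 7, 144929931 to 144939925, minus strand) encodes cyclin D1, the D cyclin best known as a target of growth factor signals. In HSC/MPP-like cells control stood at 47.5 CPM [42.8 to 52.5], Mll3SI at 34.2 CPM [29.8 to 39.2], Mll4SI at 18.8 CPM [15.4 to 22.8] and Mll3/4SI at 20.7 CPM [15.98 to 26.4]. In cluster 7 the levels were 38.0, 29.7, 9.82 and 24.3 CPM, in monocyte-like cells 31.8, 27.1, 8.495 and 12.9 CPM, and in erythroid-like cells 25.2, 22.8, 9.77 and 8.38 CPM. Control was highest and Mll3SI second in all 4 classes, and the intervals of control and Mll3SI overlapped in erythroid-like cells. The order of Mll4SI and Mll3/4SI changed between classes, with their intervals overlapping in HSC/MPP-like and erythroid-like cells. In control the classes ran from HSC/MPP-like over cluster 7, monocyte-like and erythroid-like down to basophil/mast-like (7.62 CPM), early granulocyte-like (3.45 CPM) and late granulocyte-like cells (1.25 CPM), and the intervals of neighbours in that order did not overlap.

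A log2 ratio of (CPM + 1) to control is called here where it reaches 0.5 in either direction and the mean of the 2 libraries is at least 10 CPM. Its interval is exact, taken without the added 1, and covers counting error only. In Mll4SI the Ccnd1 log2 ratios were -1.29 [-1.66 to -1.02] in HSC/MPP-like cells, -1.85 [-2.23 to -1.68] in cluster 7, -1.79 [-2.15 to -1.66] in monocyte-like and -1.28 [-1.86 to -0.90] in erythroid-like cells. In Mll3/4SI they were -1.16 [-1.60 to -0.81], -0.62 [-0.90 to -0.40], -1.24 [-1.60 to -1.02] and -1.48 [-2.25 to -0.99]. All 8 were called lower. The Mll3SI ratios were -0.46, -0.35, -0.22 and -0.14 in the same classes and were not called. In B-lymphoid-like cells, outside the 7 classes, Mll3SI was at 4.52 CPM against 14.7 CPM in control, from 11 and 17 UMIs. The ratio there was -1.51 [-2.94 to -0.52] and was not called, as the mean was under 10 CPM. The 3 comparisons share the control library.

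The 2 hashtag antibodies divide each library, though the labels do not say what they marked, so their cells are parts of 1 library and not replicates. In HSC/MPP-like cells, Ccnd1 was at 40.0 and 53.9 CPM in the Hashtag1 and Hashtag2 cells of control, 18.2 and 22.3 CPM in Mll4SI and 22.3 and 18.7 CPM in Mll3/4SI, while Mll3SI spread from 24.3 to 42.0 CPM. The hashtag log2 ratios were -1.10 and -1.24 (Mll4SI), -0.81 and -1.48 (Mll3/4SI) and 0.07 and -1.12 (Mll3SI, where the Hashtag1 cells showed no lower level). Those of Mll3SI in B-lymphoid-like cells went opposite ways, at -1.89 and 0.38.

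**Figure D2:**
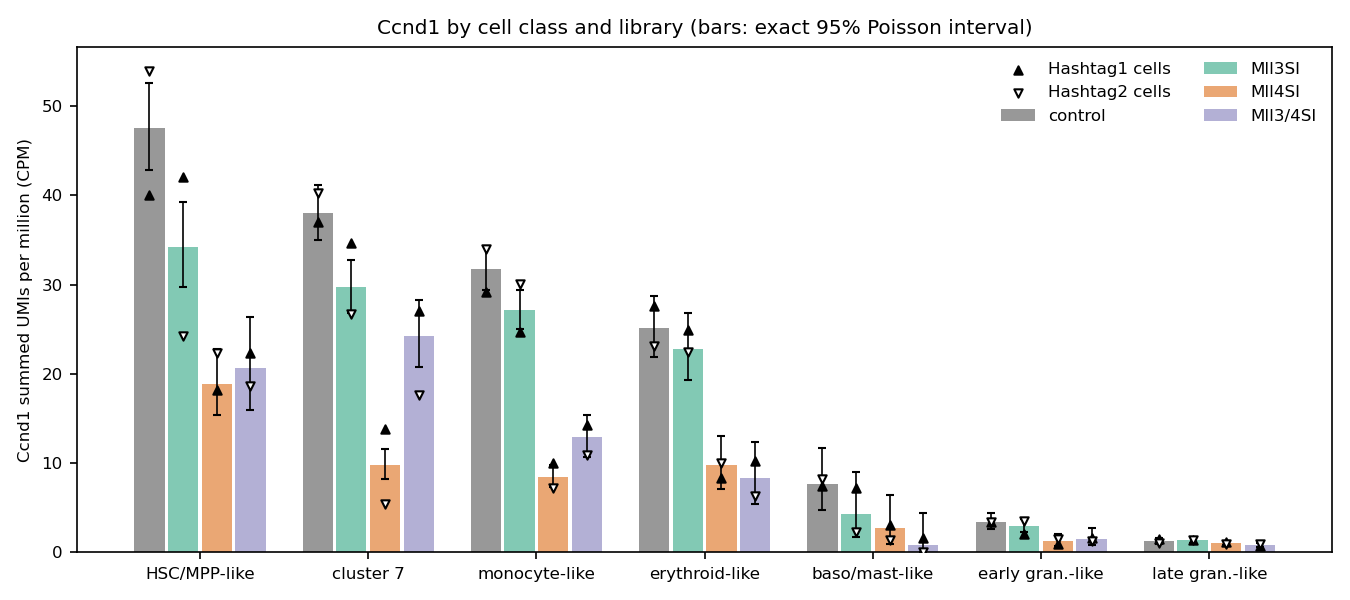
Ccnd1 level in CPM (y axis, bars) for each cell class and library, with exact 95% Poisson intervals as whiskers and the Hashtag1 and Hashtag2 cells of a library as triangles. Mll4SI and Mll3/4SI stand below control in the 4 classes on the left.

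After thinning each cell to 3000 UMIs, a Ccnd1 UMI was found in 9.40% of control HSC/MPP-like cells [6.77 to 12.6, exact Clopper-Pearson], 8.05% of Mll3SI cells, 4.36% of Mll4SI cells [2.34 to 7.34] and 6.58% of Mll3/4SI cells [3.20 to 11.8]. In monocyte-like cells the shares were 8.94%, 6.93%, 2.12% and 3.15%. The late granulocyte-like cells, taken as the level that free RNA can give, had 0.375%, 0.656%, 0.360% and 0.233%, at median depths of 11016 to 17418 UMIs against 13745 to 19981 in HSC/MPP-like cells. Unthinned, 40.8%, 29.9%, 20.3% and 24.8% of HSC/MPP-like cells held one. Ccnd1 overlaps LTO1 on the other strand, as Cdkn1c does Gm44732, Ccnd3 Bysl and Cdk4 Tspan31. Ccnd2 overlaps Gm43126 and 9330179D12Rik on the other strand, and Cdk6 overlaps Gm17590 and Gm42435. Whether counting used strand is not given in the sources used here.

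Proliferation transcripts of HSC/MPP-like cells were close to level between libraries. Over a list of 30 genes of S, G2 and M phase they summed to 4359, 4484, 4377 and 4262 CPM in control, Mll3SI, Mll4SI and Mll3/4SI. Among cells with at least 3 proliferation UMIs after thinning, the Ccnd1 log2 ratio of HSC/MPP-like cells was -1.40 [-1.82 to -1.10] for the Mll4SI library; that of Mll3/4SI was -1.08 [-1.54 to -0.71]. In monocyte-like cells it was -1.76 and -1.22. Mll3SI passed 0.5 in HSC/MPP-like cells under this restriction, at -0.57. Summed late granulocyte markers moved with the Mll4SI label, at 10986 CPM in its HSC/MPP-like cells against 2205 in control, 3057 in Mll3SI and 1545 in Mll3/4SI. With cells of over 1% such UMIs left out, the Mll4SI ratios of Ccnd1 were -1.22 in HSC/MPP-like cells, -1.81 in cluster 7, -1.73 in monocyte-like and -1.30 in erythroid-like cells.

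In all kept cells together, Ccnd1 was at 16.4, 12.9, 4.08 and 4.62 CPM and Ccnd2 at 76.2, 71.1, 45.5 and 47.3 CPM in control, Mll3SI, Mll4SI and Mll3/4SI. The log2 ratios were -1.78 and -1.63 for Ccnd1 and -0.73 and -0.68 for Ccnd2 in Mll4SI and Mll3/4SI, where 9.04% and 5.24% of all genes tested were called, against 1.40% and no member in Mll3SI. These sums mix cell types in different shares. Late granulocyte-like cells, low in Ccnd2, made up 51.7%, 47.8%, 71.6% and 51.3% of kept cells, and within HSC/MPP-like cells the Ccnd2 ratios were -0.31 and 0.08. With every cluster left out in which 1 library gave over 60% of the cells, Ccnd2 in all kept cells was at 0.39 in Mll4SI and -0.03 in Mll3/4SI.

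Set side by side over HSC/MPP-like cells, the Mll3SI, Mll4SI and Mll3/4SI comparisons called 0, 3 and 1 of the 9 genes that reached 10 CPM. In Mll3SI 0 were called, against 2.65% of all 8845 genes tested. The medians were 0.05 over the 9 and 0.01 over all genes. In Mll4SI 3 were called (Cdkn1b higher, Cdkn1a and Ccnd1 lower), against 6.42% of 8829 genes, with medians of -0.07 and -0.00. In Mll3/4SI 1 was called (Ccnd1 lower), against 6.22% of 8801 genes, with medians of -0.02 and -0.06. In cluster 7 the counts were 0, 1 and 1 of 9, against 1.16%, 4.01% and 2.90% of all genes. Monocyte-like cells gave 0, 1 and 1 called, against 0.942%, 3.35% and 2.65%. Erythroid-like cells gave 0, 1 and 1 called, against 2.93%, 7.46% and 6.71%. All the called genes of these 3 classes were Ccnd1.

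**Figure D3:**
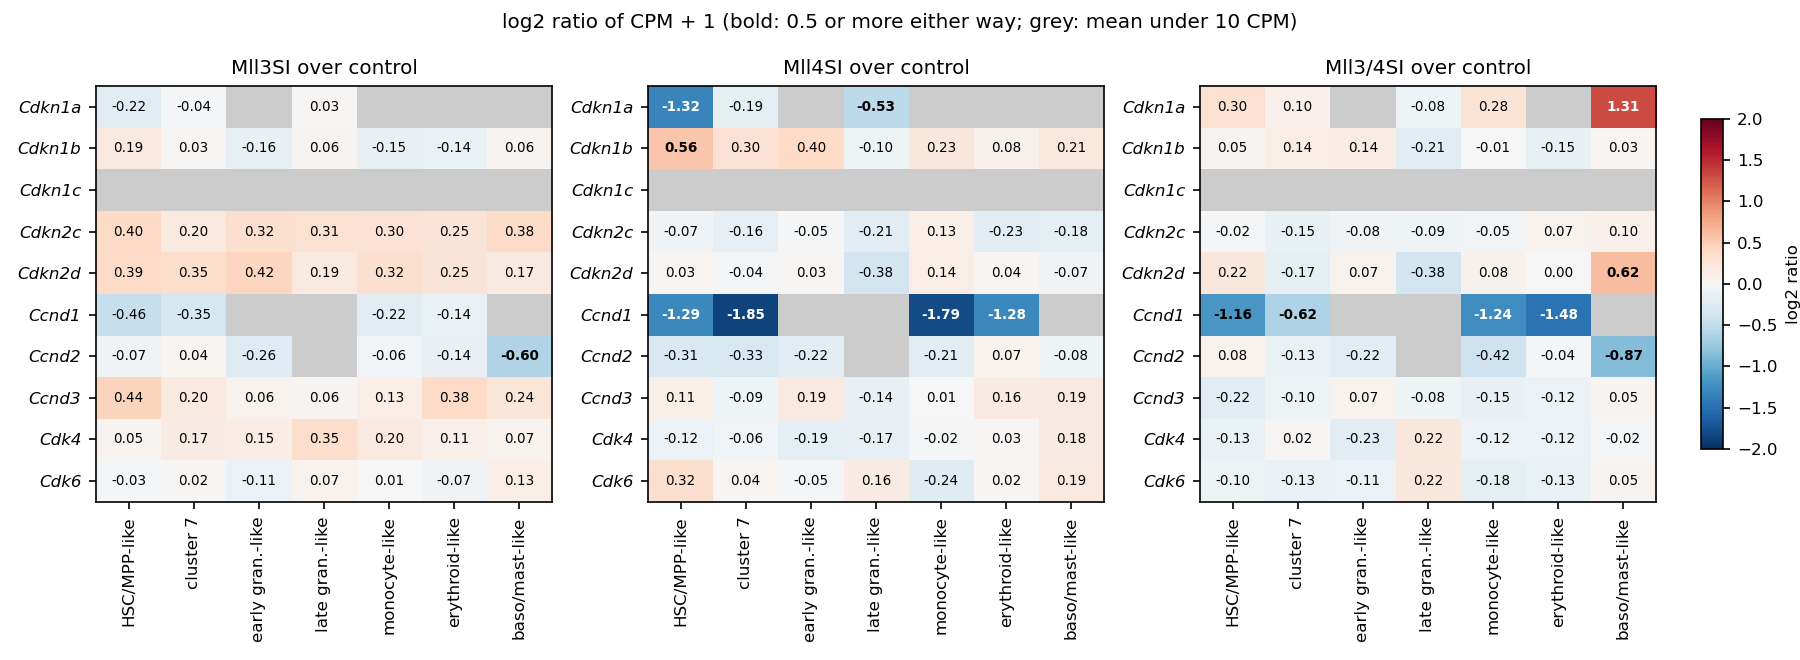
log2 ratio of CPM + 1 of each SI library over control (colour and printed value), for the 10 genes (rows) and 7 cell classes (columns), with values of 0.5 or more in bold and genes under a mean of 10 CPM in grey. Ccnd1 carries 4 of the 7 called values of Mll4SI and 4 of the 7 of Mll3/4SI.

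The other called genes of HSC/MPP-like cells were the CIP/KIP inhibitors Cdkn1a and Cdkn1b, both in Mll4SI. Cdkn1a (ENSMUSG00000023067, chromosome 17, 29090976 to 29100727, plus strand) encodes p21, a p53 target. Control was at 15.4 CPM [12.8 to 18.3], Mll3SI at 13.05 CPM [10.3 to 16.2], Mll4SI at 5.55 CPM [3.77 to 7.88] and Mll3/4SI at 19.1 CPM [14.6 to 24.6]. Mll4SI stood alone below the others, at a log2 ratio of -1.32 [-2.09 to -0.89], with hashtag values of -1.40 and -1.45. In monocyte-like cells Cdkn1a was at 9.12, 8.03, 5.74 and 11.3 CPM, with Mll4SI lowest again at -0.59, under the mean of 10 CPM that a call needs. In early granulocyte-like cells, also under that mean, Mll4SI was higher than control, at 8.25 against 5.65 CPM and 0.48 [0.12 to 0.97]. Cdkn1b (ENSMUSG00000003031, chromosome 6, 134920401 to 134925513, plus strand) encodes p27. The levels were 53.9, 61.6, 80.1 and 55.7 CPM, in the order control, Mll3SI, Mll4SI and Mll3/4SI, with Mll4SI highest at a log2 ratio of 0.56 [0.38 to 0.77] and hashtag values of 0.40 and 0.72. Without the cells rich in late granulocyte markers the Mll4SI ratios were -1.36 for Cdkn1a and 0.54 for Cdkn1b. Cdkn1b in Mll4SI was above control in 6 of the 7 classes, by 0.08 to 0.56, and below it in late granulocyte-like cells (-0.10).

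Cdkn1c (ENSMUSG00000037664, chromosome 7, 143458339 to 143461050, minus strand), for p57, was scarce. In HSC/MPP-like cells control was at 2.39 CPM [1.44 to 3.74], Mll3SI at 6.36 CPM [4.52 to 8.69], Mll4SI at 7.705 CPM [5.58 to 10.4] and Mll3/4SI at 1.91 CPM [0.701 to 4.16], from 19, 39, 43 and 6 UMIs. These levels stayed under the minimum for a call, and it was at 2.14 CPM or less in the other 6 classes and at 2.59 CPM (control) and 2.46 CPM (Mll3SI) in B-lymphoid-like cells. After thinning, 0.723%, 2.44%, 1.68% and 1.32% of HSC/MPP-like cells held a UMI, against 0.259%, 0.236%, 0.180% and 0.233% of late granulocyte-like cells. The thinned shares of HSC/MPP-like cells rest on 3, 10, 5 and 2 cells, and their order differed from that of the CPM. Unthinned, 4.32%, 8.03%, 13.3% and 3.27% of HSC/MPP-like cells held a UMI, in the order of the CPM but at unequal depths. No order of the libraries is read from these shares.

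Surface antibodies showed where in the HSC/MPP-like class the genes were high. CD150 is a marker of long-term stem cells, CD48 and CD135 (the Flt3 receptor) mark multipotent progenitors, and Sca1 marks primitive cells. Within each library the 25% of HSC/MPP-like cells highest for an antibody, by its centred log ratio, were set against the lowest 25%, with 104, 102, 75 and 38 cells at each end of control, Mll3SI, Mll4SI and Mll3/4SI. Ccnd1 was at 77.9, 55.6, 21.9 and 37.3 CPM in the CD135-high cells and at 34.0, 20.6, 11.7 and 5.19 CPM in the CD135-low cells of control, Mll3SI, Mll4SI and Mll3/4SI. The CD135-high cells were higher in all 4 libraries, by 1.17 [0.78 to 1.62], 1.39 [0.83 to 2.07], 0.84 [0.02 to 1.81] and 2.63 [1.35 to 4.81] on the log2 scale. The CD135-high cells of Mll4SI had less Ccnd1 than the CD135-low cells of control. Ccnd2 was also higher in CD135-high cells, by 0.47 to 1.04.

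Cdkn1a was also higher with the progenitor antibodies CD48 and CD135. In CD48-high cells it was at 24.8, 27.8, 8.58 and 30.6 CPM, and in CD48-low cells at 3.88, 2.53, 3.13 and 3.04 CPM (6, 3, 4 and 2 UMIs), in control, Mll3SI, Mll4SI and Mll3/4SI. The CD48-high cells of Mll4SI stood below those of the other libraries, and only in Mll4SI did the interval of the difference reach 0, at 1.21 [-0.22 to 3.51]. Between high and low ends of CD135 Cdkn1a differed by 1.43 to 2.90, and of CD150 and Sca1 by -3.68 to -0.96 and -3.23 to -0.77. The intervals included 0 for CD150 in Mll4SI and Mll3/4SI and for Sca1 in Mll3SI and Mll4SI. By CD34, Cdkn1a differed by 0.72, -0.14, -0.12 and 0.70 in control, Mll3SI, Mll4SI and Mll3/4SI. Each of these intervals included 0, and the direction was not common. Between the highest and lowest 10% of cells by CD34 it differed by 1.44 to 2.39, with an interval that included 0 in Mll4SI. Cdk6, at 1197, 1262, 1512 and 1161 CPM in CD48-high and 683, 631, 1043 and 853 CPM in CD48-low cells, was higher with CD48 and lower with CD150 and Sca1, by -0.59 to -0.32 and -1.27 to -0.53, in all 4 libraries. Ccnd3 was lower with CD48, by -0.85 to -0.27, with each interval below 0. With Sca1 it differed by 0.10 to 0.36, where the interval excluded 0 in control alone, and between the highest and lowest 10% of cells Mll3SI was at -0.01.

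Cdkn1c, with few UMIs, was lower with CD135 and higher with CD150 in control, Mll3SI and Mll4SI. In Mll3/4SI it had 1 UMI at each end of CD150, and 0 and 1 UMI at the high and low ends of CD135. No direction is read there. In CD135-high and CD135-low cells it was at 1.38 and 4.44 CPM in control, 1.76 and 13.1 CPM in Mll3SI, 5.83 and 9.89 CPM in Mll4SI and 0 and 1.30 CPM in Mll3/4SI, from at most 19 UMIs at either end. In CD150-high and CD150-low cells it was at 16.7 and 1.14 CPM in Mll3SI and 13.1 and 3.52 CPM in Mll4SI. The interval of the difference by CD150 included 0 in control and Mll3/4SI, and that by CD135 in all but Mll3SI. With CD48 it was lower in control (-2.20), Mll3SI (-2.94) and Mll4SI (-1.36) and with Sca1 higher (1.71, 2.77 and 1.16), while Mll3/4SI, with at most 3 UMIs at either end, had 0.69 and -0.49. Proliferation transcripts moved with CD48 too, at 5322 CPM in the high and 3412 CPM in the low cells of control, and their part in these differences was not tested.

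**Figure D4:**
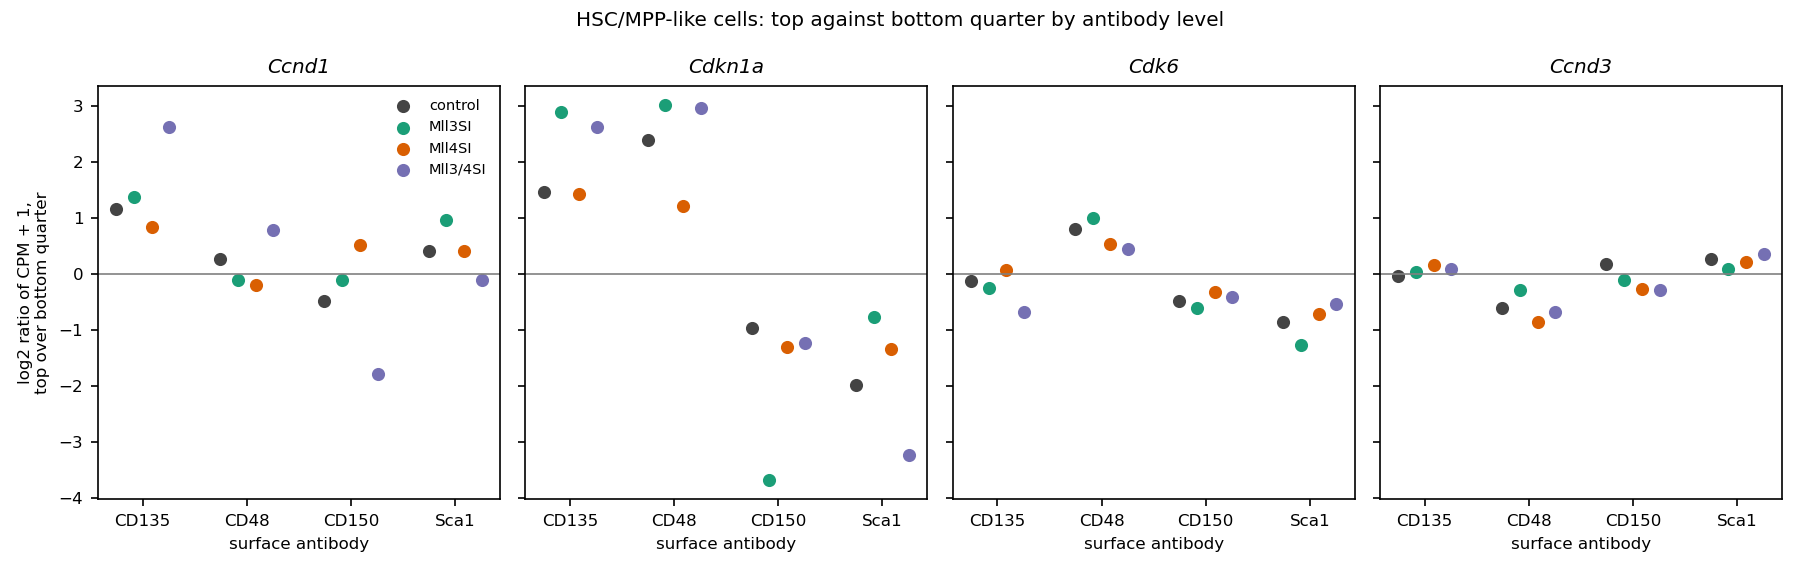
log2 ratio of CPM + 1 between the top and bottom 25% of HSC/MPP-like cells by antibody level (y axis), by antibody (x axis), with 1 point per library, for Ccnd1, Cdkn1a, Cdk6 and Ccnd3. The Cdkn1a points lie above 0 for CD135 and CD48 and below 0 for CD150 and Sca1 in all 4 libraries, with intervals that include 0 in 5 of these 16 cases.

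Within late granulocyte-like cells the INK4 genes and Cdkn1a were higher in cells with proliferation transcripts than in cells without. Cells with at least 3 UMIs of the proliferation list after thinning were set against cells with none, a range of a score and not a cell type. The cells without were shallower, with median depths of 8558, 6960, 7311 and 10446 UMIs in control, Mll3SI, Mll4SI and Mll3/4SI. Those with had 15169, 11717, 13387 and 17944 UMIs. Cdkn2c was at 160.0, 194, 174 and 154 CPM in the cells with such UMIs and at 4.74, 8.54, 9.34 and 8.60 CPM in those without, in control, Mll3SI, Mll4SI and Mll3/4SI. The log2 differences were 4.81 [3.72 to 6.95], 4.35 [2.96 to 6.78, from 3 UMIs without], 4.08 [3.96 to 4.49] and 4.01 [3.497 to 4.91], in 1 direction in every library. Cdkn2d was at 359.6, 406, 317 and 279 CPM with and 141, 142, 133 and 105 CPM without, a difference of 1.24 to 1.51. Cdk4, at 23.9, 30.6, 25.5 and 28.7 CPM with and 9.49, 2.85, 6.05 and 5.26 CPM without, differed by 1.25 to 3.04. Cdkn1b differed by 0.20 to 0.71, with an interval that included 0 in Mll3/4SI, and Ccnd3 by -0.27 to 0.26 with no common direction. Cdk6 differed by 0.15 to 0.83, with an interval that included 0 in Mll3SI.

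Cdkn1a was at 13.3, 13.4, 11.4 and 12.9 CPM in the cells with proliferation UMIs. Those without had 0 UMIs of it among 103 control, 51 Mll3SI and 202 Mll3/4SI cells, and 2 UMIs among 1718 Mll4SI cells. Against the limit of 3 UMIs in the cells without, the level was at least 3.75-fold higher in control, at least 1.56-fold higher in Mll3SI and at least 8.96-fold higher in Mll3/4SI. The exact intervals of these ratios started at 1.60, 0.34 and 2.86 on the log2 scale. The Mll4SI interval was 4.36 to 9.27 on the log2 scale. Cdkn1a and Cdk4 did not rise steadily with the proliferation sum. Cluster 15 had a higher sum than clusters 0, 2 and 14, at 8332, 8920 and 8021 CPM in control, Mll3SI and Mll3/4SI. Cdkn1a stood there at 1.47, 1.47 and 1.43 CPM and Cdk4 at 6.05, 9.32 and 6.80 CPM. Control cluster 0, at 7010 proliferation CPM, had 11.6 CPM of Cdkn1a and 16.7 CPM of Cdk4. In control cluster 15, Cdkn2c and Cdkn2d were at 110 and 389 CPM.

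**Figure D5:**
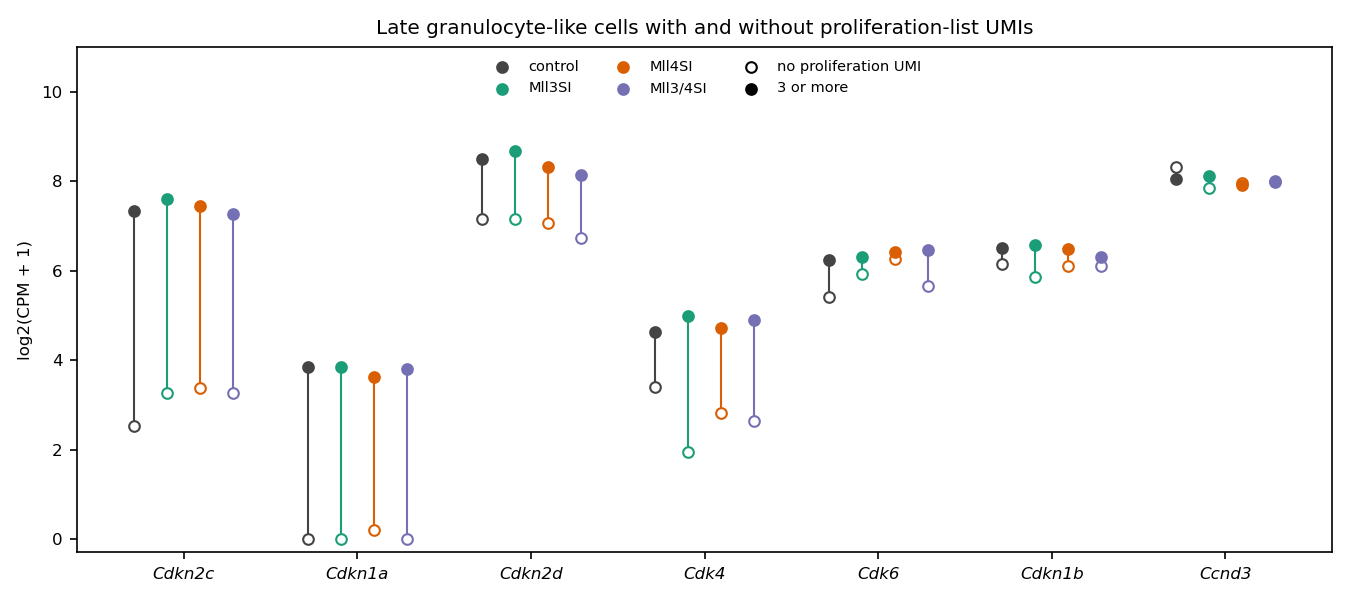
log2(CPM + 1) (y axis) of 7 genes (x axis) in late granulocyte-like cells with no proliferation-list UMI (open) and with 3 or more (filled), 1 pair per library. Cdkn2c is higher by over 4 log2 units in each library, and Cdkn1a rests on 0 to 2 UMIs in the cells without.

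The libraries differed in how many such cells they held. Late granulocyte-like cells with no proliferation UMI made up 2.97%, 1.34%, 23.8% and 5.89% of the class in control, Mll3SI, Mll4SI and Mll3/4SI. Of the Mll4SI cells of this class, cluster 6 held 1918, at 234 proliferation CPM, 9.92 CPM of Cdkn2c and 0.0653 CPM of Cdkn1a. Over the whole class, Cdkn1a was at 12.8, 13.1, 8.60 and 12.1 CPM, and Mll4SI was called lower at -0.53 [-0.73 to -0.42], as 1 of 7 genes, against 5.92% of 6888 genes. Among cells with at least 3 proliferation UMIs the ratio was -0.21 [-0.38 to -0.07], and not called. It missed 0.5 in 5 of 15 alternatives. The other late granulocyte-like ratios were not called in Mll4SI, nor was any in Mll3SI (0 of 7, against 1.55% of all genes) or Mll3/4SI (0 of 7, against 5.15%). Cdkn2d came nearest, at -0.38 in Mll4SI and -0.38 in Mll3/4SI. In the cells with proliferation UMIs the Cdkn2d values were -0.18 and -0.37. As a class drawn from partly separate clusters, its ratios compare cells that were not the same mix.

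Early granulocyte-like cells had no called gene among 7, against 1.41%, 4.70% and 2.62% of all genes in Mll3SI, Mll4SI and Mll3/4SI. In basophil/mast-like cells, with 64 to 170 cells a library, Ccnd2 was at 100.2, 65.9, 94.6 and 54.2 CPM in control, Mll3SI, Mll4SI and Mll3/4SI. It was called lower in Mll3SI at -0.60 [-0.94 to -0.28] and in Mll3/4SI at -0.87 [-1.29 to -0.50]. Cdkn1a was at 6.17, 6.22, 10.5 and 16.7 CPM and was called higher in Mll3/4SI at 1.31 [0.45 to 2.45], and Cdkn2d there at 0.62 [0.19 to 1.08]. This class called 1 of 7, 0 of 7 and 3 of 8 of the genes, against 9.51%, 11.9% and 14.8% of all genes. Its proliferation list moved as well, with 12 of 30 genes higher and 1 lower in Mll3/4SI and a median of 0.39, against -0.03 over all genes. In cells with at least 3 proliferation UMIs the Mll3/4SI ratios were 0.80 for Cdkn1a, no longer called since its mean fell under 10 CPM, and 0.75 for Cdkn2d. Cdkn1a was not called in Hashtag1 cells either (1.07), and Cdkn2d lost its call with doublets kept (0.23) and with classes taken from the nearest control cells (0.13). B-lymphoid-like cells had the highest Cdkn1a levels of the named classes, at 27.6, 43.1, 58.0 and 45.2 CPM from 63, 182, 38 and 36 cells, and Mll3SI was called higher at 0.62 [0.06 to 1.26] as 1 of 8 genes, against 12.2% of 8014 genes. The hashtag values of that ratio went opposite ways, at 1.02 and -0.16.

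Mll3SI showed small differences of 1 sign across classes. Cdkn2c was above control in 7 of the 7 classes, by 0.20 to 0.40, Cdkn2d in 7, by 0.17 to 0.42, Ccnd3 in 7, by 0.06 to 0.44, and Cdk4 in 7, by 0.05 to 0.35. None of these values reached 0.5, and in 6 of the 28 the Hashtag1 or the Hashtag2 cells alone fell below control, down to -0.35 for Cdkn2d in basophil/mast-like cells. Of 5964 genes with at least 10 CPM in all 7 classes, 12.1% were above control in all 7. In HSC/MPP-like cells Ccnd3 was at 132 CPM [124 to 140.2] in control against 180.0 CPM [170 to 191] in Mll3SI, with 143 CPM for Mll4SI and 113 CPM for Mll3/4SI. The 2 INK4 genes and Ccnd3 were thus highest in Mll3SI among the 4 libraries in this class. With a single library, a difference of this size cannot be set against the spread between animals.

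Other genes of the pathway showed few called values, from lists chosen with earlier results of these data known. In HSC/MPP-like cells, 0 of the 14 other cyclins and kinases that reached 10 CPM (of 15) were called in any of the 3 comparisons, where 2.65%, 6.42% and 6.22% of all genes were. Of 15 RB and E2F genes, 13 or 14 of them at 10 CPM, E2f7, a repressor of E2F targets, was called lower in Mll3SI (-0.54). Of the 9 other inhibitors and turnover genes found, 7 at 10 CPM, Cdkn3 was called higher in Mll3/4SI (0.59). Of 17 p53 targets and regulators, 11 at 10 CPM, Gtse1 was called lower in Mll4SI (-0.51), and Gtse1 (-0.54) and Aen (-0.55) in Mll3/4SI. The 30 proliferation genes had 0 called in HSC/MPP-like cells, with medians of 0.02, 0.02 and -0.02. In early granulocyte-like cells of Mll4SI 8 of these 30 were lower, among them Aurkb (-0.62), Hmmr (-0.61) and Top2a (-0.55), with a median of -0.36 against -0.01 over all genes. In late granulocyte-like cells of Mll4SI 4 of 30 were lower, with a median of -0.39, beside the share of cells without proliferation UMIs given above.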

How the data were processed

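The deposited values were raw counts of UMIs per gene or antibody and cell barcode for 4 libraries, made by the authors with Cell Ranger 7.1.0 on mm10, per the submitters' processing notes. The annotation, the use of strand and of intronic reads, and any cell filter were not given in the sources used here. Groups came from sample titles. Of 32285 gene IDs, 32158 were found in the GENCODE M21 annotation of GRCm38.

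Cells with at least 500 genes, 1000 UMIs and at most 10% mitochondrial UMIs were kept. Of 34122, 2415 were removed as doublets (the top 0.8% per 1000 cells by a score as Scrublet defines it). Barcodes shared between libraries were 16 to 29 per pair. Libraries were clustered jointly on 2000 variable genes without members, markers or list genes (30 components, 15 neighbours, Leiden resolution 1, 22 clusters). A cluster name needed at least 3 markers at a log2 fold of 1, a rule made after the clusters were seen, so names may differ from those of the study. Python 3.11.15, NumPy 2.4.6, SciPy 1.17.1, scikit-learn 1.9.0 and leidenalg 0.10.2 were used. The scripts were tested on simulated data.

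UMIs were summed per class and library, so with 1 library per group no test was run. Named genes were the 10 members, up to 6 called list genes per comparison, and the 3 genes most like each member, of which 1 is not reported here. The members and lists were chosen with earlier results of these data known. Intervals cover counting error only.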

Additional observations from a re-analysis of the deposited data

How the results depend on the processing

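No paired analysis was possible because each group has 1 library. Over 7 classes, 1, 7 and 7 pairs of a gene and a class were called for Mll3SI, Mll4SI and Mll3/4SI. The Mll3SI count was 4 with doublets kept, 4 in Hashtag1 cells, 8 in Hashtag2 cells, 3 with a minimum of 1 CPM for a call and 3 in cells with at least 3 proliferation UMIs. The Mll4SI count was 13 with that minimum of 1 CPM, and the Mll3/4SI count 12 with classes taken from the nearest control cells. The other 41 counts stayed within 1.5 times. Of 297 alternative values of called ratios, 248 lay within the interval, 48 moved outside it and 1 changed direction: Ccnd2 in all kept cells of Mll4SI, at 0.39 without clusters mostly of 1 library. The intervals leave out the added 1 CPM, so a main value can lie outside its own. Ccnd1 in all kept cells of Mll4SI did so, at -1.78 against -2.15 to -1.88. Leaving out clusters mostly of 1 library was chosen after seeing the data, as were the limits to cells with proliferation UMIs and to cells poor in late granulocyte markers. Ccnd1 stayed called lower under every alternative in HSC/MPP-like and monocyte-like cells of Mll4SI and Mll3/4SI and in cluster 7 (which has no counterpart at Leiden resolution 2) and erythroid-like cells of Mll4SI. In cluster 7 of Mll3/4SI it was not called with 10 CPM added or in Hashtag1 cells, and in erythroid-like cells of Mll3/4SI not at Leiden resolution 2, where its mean was under 10 CPM. Median-of-ratios scaling moved the median of all genes in all kept cells of Mll4SI from -0.11 to -0.01, and leaving out those clusters moved it to 0.16. Cdkn1a in HSC/MPP-like cells of Mll4SI ranged from -1.49 to -0.71, and Cdkn1b from 0.40 to 0.72. Each lost its call in 2 of 15 alternatives, Cdkn1a in Hashtag1 cells (-1.40) and at Leiden resolution 2 (-1.27) through a mean under 10 CPM, and Cdkn1b in Hashtag1 cells (0.40) and with 10 CPM added (0.495). Depth limited Cdkn1c most, at under 10 CPM in each class.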

Other observations

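Cluster 5 held 1977 of the 6755 kept Mll3/4SI cells but 4 of control, 7 of Mll3SI and 9 of Mll4SI, so it entered no comparison. Cpa3 and Fcer1a, genes of mast cells and basophils, lead it, and a cluster from 1 library may be that library and not a type. In its Mll3/4SI cells Cdk6 was at 822 CPM, Cdk4 at 192 CPM, Ccnd3 at 96.8 CPM, Ccnd2 at 61.4 CPM, Cdkn2c at 54.5 CPM, Cdkn1b at 39.4 CPM, Cdkn2d at 37.8 CPM, Cdkn1a at 12.2 CPM and Ccnd1 at 3.31 CPM. Cells with at least 3 proliferation UMIs had less Cdk6 than cells without (793 against 1028 CPM), less Ccnd2 (58.3 against 88.8 CPM) and less Ccnd3 (90.8 against 139.9 CPM), and more Cdk4 (204 against 123 CPM). Cdkn1a was at 12.2 CPM with and 11.9 CPM without, a log2 difference of 0.03 [-0.57 to 0.71].

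Cluster 20, led by a mix of dendritic and plasma cell genes and left unnamed, had more Ccnd1 than the named classes, at 170.3, 139, 47.3 and 218 CPM in control, Mll3SI, Mll4SI and Mll3/4SI, from 52, 40, 25 and 26 cells.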
